A study of Homo sapiens with 18 samples.

Results

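The 10 genes described here carry the switch into and out of mitosis: the cyclins CCNA2, CCNB1 and CCNB2, the kinase CDK1 and its activating phosphatase CDC25C, the kinases PLK1, AURKA and AURKB, the anaphase activator CDC20, and the transcription factor FOXM1. They were taken by name from 58884 genes counted, and all 10 passed the filter on low counts (a sum above 10 over the libraries fitted). Their RNA was measured by poly(A) RNA sequencing of T47D cells, an estrogen receptor-positive luminal breast cancer line. Cells of a line labelled T47D AAV and WT, and of a line labelled T47D JL and PARP1 KO, were treated for 48 hours with the vehicle DMSO, with niraparib at 10 μmol/L or with olaparib at 10 μmol/L, which gives 6 groups of 3 libraries and 18 libraries in all. Both drugs are inhibitors of PARP enzymes, which detect breaks in DNA and modify proteins there with chains of ADP-ribose. Each genotype is 1 line and the edited allele is not described in the sources used here, so a difference between genotypes cannot be told apart from a difference between these lines. The study describes 3 dishes seeded for each condition and calls its T47D transcriptome a single representative experiment, so the P values measure the spread between libraries of such an experiment, which may be technical.

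Mitosis begins when cyclin B binds CDK1 and CDC25 phosphatases strip the inhibitory phosphates from the complex. Cyclin A2 acts with CDK2 in S phase and with CDK1 in G2, PLK1 and Aurora A promote mitotic entry and the maturation of centrosomes, and Aurora B corrects faulty attachments of chromosomes to the spindle as the enzyme of the chromosomal passenger complex. CDC20 then activates the anaphase-promoting complex (APC/C), the ubiquitin ligase that marks cyclin B and securin for destruction and so allows exit. The genes themselves are transcribed late in the cycle: the MuvB core binds their promoters with the DREAM repressor in quiescent cells, and with MYBL2 and FOXM1 in S phase and G2. The level of these transcripts in a population is therefore widely used as a sign of how many cells are in G2 and mitosis. In bulk RNA, fewer cells in a phase and less RNA per cell cannot be told apart.

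The total count per library lay between 28890837 and 52251288, and each of the 10 genes had between 526 and 21084 counts in every library. PARP1 stood between 291 and 373 CPM (counts scaled to a common library total, with a correction for library composition) in the 9 WT libraries and between 22.9 and 27.6 CPM in the 9 PARP1 KO libraries. With DMSO the genotypes differed by -3.87 on the log2 scale (standard error 0.058, adjusted P = 1.7e-34, edgeR). All 10 luminal epithelial markers, such as ESR1, GATA3 and KRT8, had a mean of at least 1 CPM. Of 13 markers of blood, endothelial, fibroblast, muscle and basal cells, 4 reached that mean, led by COL1A1 and ACTA2, while CD3E, PECAM1 and KRT5 were at 0 counts in most libraries.

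Letters known to matter for cell cycle-dependent transcription were looked up in the RefSeq promoter windows of GRCh38.p14, which run from 250 bases before to 50 bases after an annotated start. The cell cycle homology region, a site of the MuvB core, was searched as TTTGAA and the NF-Y site, a CCAAT box, as CCAAT, each on both strands and with no shared letters between the motifs. The tables held windows for 8 of the 10 genes, AURKA and FOXM1 being named only. TTTGAA occurred in a window of 5 of these 8 genes (CCNB2, CDK1, CDC20, CDC25C and PLK1), beside 18.2% of all 27305 genes with a window, and CCAAT in all 8, beside 39.7%. The same 5 held the 2 motifs together, beside 8.37% of all genes. The forkhead letters GTAAACA, searched as a FOXM1-type site, occurred in 1 of the 8, CDK1, beside 4.19%. Genes with several annotated starts have several windows and so more chances of a match, and a match describes letters, not binding. Only these exact letters were searched, so a window without them may still hold a variant of the site. The stretches below show how these short sites are spaced before the start in the genes whose RNA changed. They read 5′ to 3′ along the gene's own strand, with CCAAT (or ATTGG, the same box on the opposite strand) and TTTGAA in capitals.
CCNB1, 120 bases before the start: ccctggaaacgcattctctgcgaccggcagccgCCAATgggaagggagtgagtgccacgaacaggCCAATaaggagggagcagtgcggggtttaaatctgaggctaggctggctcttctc
CCNB2, 120 bases before the start: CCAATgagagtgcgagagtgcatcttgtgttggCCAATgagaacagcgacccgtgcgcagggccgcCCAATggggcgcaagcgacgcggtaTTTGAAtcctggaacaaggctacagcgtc
CDC20, 120 bases before the start: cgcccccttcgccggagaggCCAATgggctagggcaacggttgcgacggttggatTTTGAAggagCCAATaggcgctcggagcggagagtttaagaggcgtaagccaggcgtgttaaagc
PLK1, 30 bases around each site: aaatccccgcggCCAATcagtggcgcgcag
PLK1, nearer the start: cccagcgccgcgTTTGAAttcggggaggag
CDK1, first start: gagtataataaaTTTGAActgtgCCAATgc
CDK1, second start: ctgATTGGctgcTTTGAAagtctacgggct
CDC25C, most downstream start shown: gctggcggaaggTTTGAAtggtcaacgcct
CCNA2, site of its single box: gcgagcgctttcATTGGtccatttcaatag

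A RefSeq start need not be the outermost start of a gene. That of PLK1 lies at 23678889, inside the span of the gene counted, and the stretches of PLK1, of CDC25C and of the second CDK1 start lie wholly within exons counted for these genes, as do 20 of the 120 bases of CCNB2, 15 of those of CCNB1 and 12 of the 30 of CCNA2. These stretches lie at chr5:69167030-69167149 on the plus strand (CCNB1), chr15:59105026-59105145 plus (CCNB2), chr1:43358861-43358980 plus (CDC20), chr16:23678804-23678833 and chr16:23678848-23678877 plus (PLK1), chr10:60778158-60778187 and chr10:60778397-60778426 plus (CDK1), chr5:138331817-138331846 minus (CDC25C) and chr4:121823922-121823951 minus (CCNA2). In CCNB2, 3 CCAAT boxes stood 120, 87 and 54 bases before the start, TTTGAA followed 29 bases before it, and a further box lay at 244, outside the stretch shown. PLK1 had the shorter form of this arrangement, with CCAAT at 73 and TTTGAA at 29 bases before the start. In CCNB1 the boxes stood at 87 and 55 bases before the start, almost the same places as in CCNB2, and TTTGAA was not in its window. CDC20 held TTTGAA 65 bases before the start, between boxes at 100 and 55, and again on the opposite strand at 178. The first CDK1 start had TTTGAA at 161 and CCAAT at 150 bases before it. The second CDK1 start had TTTGAA at 69 and 13 bases before it, and on the opposite strand 10 bases after it. Its boxes stood on the opposite strand at 78 and 46, and only the stretch around the TTTGAA at 69 is shown. In CCNA2 the only motif found was 1 box on the opposite strand, at 56 bases before the start. AURKB, whose windows overlap, had only CCAAT on the opposite strand, at 153 and 129 bases before its 2 starts, which is 1 and the same site.

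**Figure D1:**
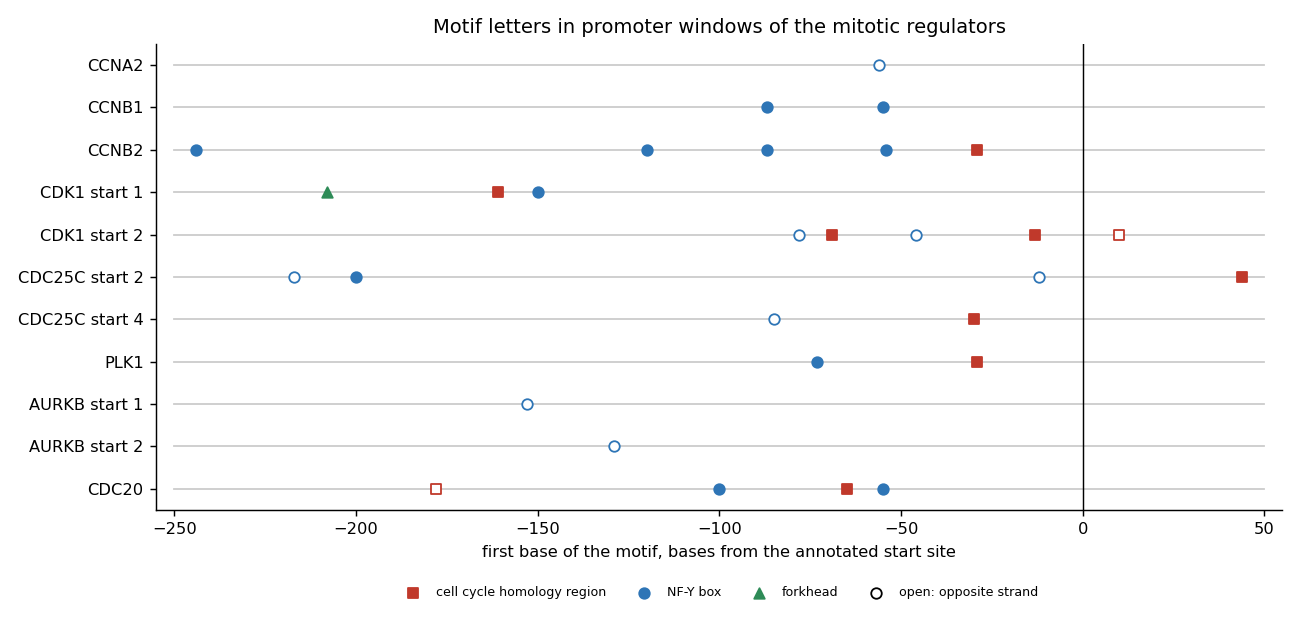
Position of TTTGAA (red squares), CCAAT (blue circles) and GTAAACA (green triangle) in the promoter windows of the 8 genes with a RefSeq window; the x axis is the distance in bases of the motif's first base from the annotated start (0), open symbols lie on the opposite strand, and windows without a motif are not drawn. CCAAT sits near 55 bases before the start in CCNA2, CCNB1, CCNB2 and CDC20, and TTTGAA sits 29 or 30 bases before a start in CCNB2, PLK1 and CDC25C.

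The files name the genes by Ensembl identifier, and no member shares exon bases with another gene on its strand. On GRCh38 those not placed further on are CCNA2 (chr4:121816444-121823933, minus strand), CCNB2 (chr15:59105126-59125045, plus), CDC20 (chr1:43358981-43363203, plus), CDC25C (chr5:138285265-138338355, minus), AURKA (chr20:56369389-56392337, minus), AURKB (chr17:8204733-8210600, minus) and FOXM1 (chr12:2857681-2877155, minus). With DMSO the 10 transcripts differed widely in abundance. Per kilobase of annotated exon, the scale on which genes can be set beside each other, CCNB1 led in WT cells at 159 ± 11.6 CPM per kb (SD, n = 3). CDC20 (83.3 ± 3.88), AURKA (82.2 ± 4.18) and CDK1 (80.6 ± 10.3) came next and overlapped each other in range, and the range of CDK1 also overlapped that of CCNB2 (67.0 ± 3.85). CCNA2, PLK1, FOXM1 and AURKB followed without overlap between neighbours, and CDC25C was lowest at 8.43 ± 0.803 CPM per kb. With niraparib this order changed: CDK1, CCNB2 and CCNB1 stood together at 36.0 ± 2.88, 36.0 ± 1.96 and 35.0 ± 3.28 CPM per kb, the range of FOXM1 (31.0 ± 1.30) overlapped that of CCNB1, and PLK1 dropped to the place above CDC25C at 8.27 ± 1.01. In PARP1 KO cells with DMSO the order was that of WT except that CDK1 (83.0) stood above AURKA (74.0), CDC20 and CDK1 overlapped in range, and CCNB1 again led at 151 CPM per kb.

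The first comparison asks what niraparib did to these transcripts in WT cells. All 10 fell at an adjusted P value below 0.05, beside 18.1% of all 22446 genes tested, and in all 10 each niraparib library lay under each DMSO library, beside 22.5% of all genes. Of the 10, 8 also changed by more than 1.5-fold and are named called here, beside 5.72% of all genes called lower. The falls were graded: PLK1, CCNB1, CCNA2, AURKA and CDC20 went to between 18.2% and 33.4% of their DMSO level, CDK1 to 44.6%, CCNB2 and CDC25C to 53.6% and 53.1%, and AURKB and FOXM1 only to 70.1% and 76.0%. The median log2 fold change over the 10 was -1.37, beside -0.025 over all genes tested. Their summed level was 1960 ± 110 CPM (SD, n = 3) with DMSO and 749 ± 36.9 CPM with niraparib, and their share of all counts went from between 0.182% and 0.200% to between 0.0760% and 0.0809%. Markers of the tissue moved in the same libraries: the luminal list summed to between 13016 and 13636 CPM with DMSO and to between 9467 and 10477 CPM with niraparib, and the list of other cell types to between 148 and 174 and between 164 and 205 CPM. The part of these in the result was not tested.

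CCNB1 encodes cyclin B1, the main partner of CDK1 at mitotic entry (Ensembl ENSG00000134057, chromosome 5 from 69167135 to 69178245, plus strand, GRCh38). In WT cells it stood at 355, 409 and 398 CPM with DMSO, at 87.2, 76.3 and 91.9 CPM with niraparib, and at 234, 241 and 236 CPM with olaparib. The 3 groups were fully separate, with olaparib between the others. Niraparib lowered it 4.56-fold, which is -2.19 on the log2 scale (standard error 0.066, adjusted P = 1.0e-14, edgeR). CCNB2, the second B-type cyclin, went from 172, 189 and 192 CPM to 100.1, 93.2 and 103.8 CPM with niraparib, and stood at 153, 157 and 153 CPM with olaparib. Its fall of 1.87-fold was smaller than that of CCNB1, although the olaparib libraries again lay between the other groups. CCNA2, which drives both S phase and entry into mitosis, was the most even of the cyclins in DMSO at 161, 159 and 161 CPM and reached 49.2, 46.1 and 46.0 CPM with niraparib. Its change of -1.77 on the log2 scale (standard error 0.050, adjusted P = 2.8e-16, edgeR) ranked second by P value among all genes tested.

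CDK1, the catalytic partner of these cyclins (chromosome 10 from 60778331 to 60794852, plus strand), had 270.1, 345 and 335 CPM with DMSO and 141, 130.4 and 153 CPM with niraparib. DMSO replicate 1 was the low one of its group, and still lay above all niraparib libraries. The log2 fold change was -1.17 with the widest error of the 10 (standard error 0.087, adjusted P = 6.8e-07, edgeR). With olaparib CDK1 stood at 303, 314 and 302 CPM, within the DMSO range. CDC25C, the phosphatase that activates CDK1, was the least abundant member, with 25.1, 29.3 and 30.1 CPM in DMSO, 15.6, 14.4 and 14.96 CPM with niraparib, and 24.98, 25.6 and 23.9 CPM with olaparib. It fell 1.88-fold with niraparib, while its olaparib and DMSO libraries overlapped.

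PLK1, a kinase that phosphorylates CDC25C and components of the APC/C, showed the largest change of the 10 (chromosome 16 from 23677656 to 23690367, plus strand). It went from 207, 219 and 219 CPM with DMSO to 43.1, 33.9 and 41.1 CPM with niraparib, with olaparib at 138, 139 and 139.9 CPM. That is a 5.48-fold fall with niraparib, -2.46 on the log2 scale (standard error 0.070, adjusted P = 1.4e-14, edgeR). AURKA, which works at centrosomes and activates PLK1, went from 227, 250.5 and 244 CPM to 77.1, 64.7 and 72.3 CPM with niraparib and 176, 173 and 168 CPM with olaparib, so that the groups were again in the same order without overlap. AURKB, the related kinase of the chromosomal passenger complex, behaved differently. Its DMSO libraries held 57.9, 62.3 and 61.2 CPM, its niraparib libraries 42.7, 41.5 and 43.2 CPM, and its olaparib libraries 63.7, 63.6 and 64.8 CPM, just above DMSO. The fall of AURKB with niraparib was 1.43-fold (adjusted P = 4.4e-08, edgeR), under the limit of 1.5-fold.

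CDC20, which carries substrates to the APC/C and starts anaphase, went from 161, 166 and 176 CPM with DMSO to 58.4, 54.4 and 55.4 CPM with niraparib and to 127, 125 and 124 CPM with olaparib. The log2 fold change with niraparib was -1.58 (standard error 0.050, adjusted P = 8.7e-16, edgeR). FOXM1, the forkhead factor that activates late cell cycle genes, moved least: it had 198, 200.2 and 200.9 CPM with DMSO, 159, 151 and 146 CPM with niraparib, and 207, 205 and 206 CPM with olaparib. Its 1.32-fold fall with niraparib passed the adjusted P value (3.8e-07, edgeR) and not the fold limit. FOXM1 RNA stood at 76.0% of its DMSO level and PLK1, a gene known to be activated by FOXM1, at 18.2%. The part of FOXM1 in the fall of PLK1 was not tested. The 95% intervals of the log2 fold changes, -0.49 to -0.30 for FOXM1 and -2.60 to -2.31 for PLK1, were far apart.

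**Figure D2:**
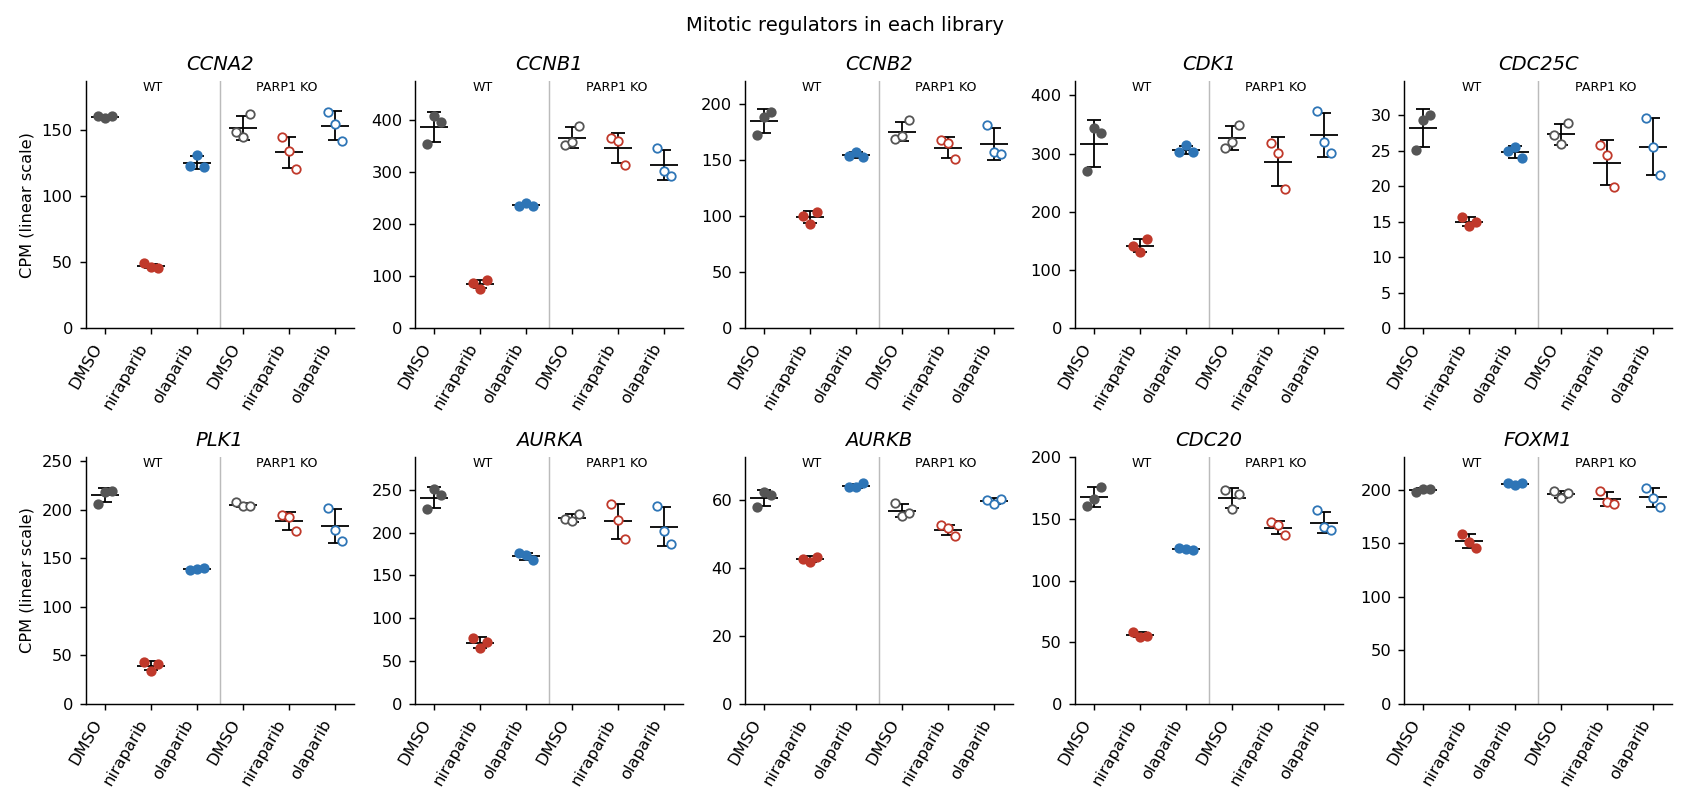
Level of each regulator in all 18 libraries, in CPM on a linear axis from 0; each point is a library, filled for WT and open for PARP1 KO, and the black bar with whiskers is the mean ± SD of 3 libraries. In WT the niraparib points lie under the DMSO points in all 10 panels, whereas in PARP1 KO the 3 treatments lie close together, with PLK1 between 168 and 208 CPM.

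Olaparib at the same dose and time changed fewer of these genes and changed them less. It lowered 2 of the 10 by more than 1.5-fold, CCNB1 and PLK1, beside 1.98% of all genes called lower, and 6 of the 10 at the adjusted P value alone (CCNA2, CCNB1, CCNB2, CDC20, PLK1 and AURKA), beside 7.77%. In the same 6 all olaparib libraries lay under all DMSO libraries, beside 17.4% of all genes. The log2 fold change was -0.70 for CCNB1 (standard error 0.063, adjusted P = 2.7e-07, edgeR) and -0.63 for PLK1 (standard error 0.065, adjusted P = 2.5e-06, edgeR), followed by AURKA at -0.48, CDC20 at -0.42, CCNA2 at -0.35 and CCNB2 at -0.25. For the other four the test was not passed: CDC25C had -0.18 (95% interval -0.33 to -0.026, adjusted P = 0.099, edgeR), CDK1 -0.046 (-0.23 to 0.14), FOXM1 0.045 (-0.050 to 0.14) and AURKB 0.085 (-0.021 to 0.19). CCNB1 and its partner CDK1 had separate intervals with olaparib, as they did with niraparib. The luminal list summed to between 10364 and 10807 CPM with olaparib, also under its DMSO range, and its part in the result was not tested.

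The drugs themselves differed for 9 of the 10 genes in WT, all lower with niraparib and called, beside 3.33% of all genes called lower in that comparison. PLK1 was 3.55-fold lower with niraparib than with olaparib, or -1.83 in log2 units (standard error 0.069, adjusted P = 2.0e-12, edgeR). CCNB1 and CCNA2 were 2.80-fold and 2.67-fold lower, AURKA 2.42-fold, CDC20 2.25-fold, CDK1 2.17-fold, CDC25C 1.66-fold, CCNB2 1.56-fold and AURKB 1.51-fold. FOXM1 was at -0.44 (adjusted P = 1.4e-07, edgeR), under the fold limit. AURKB was the call nearest to the limit, at -0.60 on the log2 scale, and without WT niraparib replicate 2 it was at -0.58 and no longer called.

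The same treatments were then compared in PARP1 KO cells. With niraparib, 0 of the 10 genes were called by edgeR, beside 0.0136% of 22037 genes called in either direction, and 0 had an adjusted P value below 0.05. At an unadjusted P value below 0.05 there were 3, CCNA2, CDC20 and AURKB, all lower, beside 4.65% of all genes lower at that threshold, and DESeq2 also called 0, with 1 at its adjusted P value alone. The log2 fold changes lay between -0.23 for CDC25C and -0.019 for AURKA, so all 10 were below 0, and in 6 of them all niraparib libraries lay under all DMSO libraries, beside 8.69% of all genes. PLK1 stood at 208, 204 and 204 CPM with DMSO and at 195, 193 and 178 CPM with niraparib, a log2 fold change of -0.12 (95% interval -0.24 to 0.0027, adjusted P = 0.56, edgeR). CCNB1 stood at 352, 359 and 390.1 CPM with DMSO and at 366, 360 and 314 CPM with niraparib, at -0.077 on the log2 scale (95% interval -0.22 to 0.070, adjusted P = 0.79, edgeR). In both, niraparib replicate 3 was the low library, and it was under the group mean in all 10 genes. CDC20 had the smallest adjusted P value, 0.12, with 173, 158 and 169.9 CPM against 147, 145 and 137 CPM. The luminal list summed to between 14487 and 15175 CPM with DMSO and to between 13449 and 13746 CPM with niraparib in these cells, and its part was not tested. For CDK1, with 309.9, 319.7 and 349 CPM against 319, 301 and 239 CPM, the interval was wide (-0.48 to 0.11).

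Olaparib in PARP1 KO cells also gave 0 calls among the 10 with edgeR, beside 0.803% of all genes called in either direction, and 0 with DESeq2. CDC20 alone passed the adjusted P value, beside 3.87% of all genes that did so in the lower direction, with 157, 143 and 141 CPM against the DMSO values above and a change of -0.19 in log2 units (standard error 0.054, adjusted P = 0.034, edgeR). Over the alternatives its adjusted P value reached 0.136 (edgeR or DESeq2), and DESeq2 had 2 of the 10 lower at its adjusted P value. CCNB1 (-0.22, adjusted P = 0.057, edgeR) and PLK1 (-0.17, adjusted P = 0.085, edgeR) had unadjusted P values below 0.05, as did CDC20, beside 10.3% of all genes lower at that threshold. CCNB1 had 347, 303 and 293 CPM, each under its 3 DMSO libraries. Olaparib replicate 1 was high in this group, above the group mean for all 10 genes. CCNA2 (0.014, 95% interval -0.12 to 0.15) and CDK1 (0.023, -0.27 to 0.31) were near 0. The luminal list summed to between 12428 and 13421 CPM with olaparib, under its DMSO range, with 4 of its 10 genes lower at the adjusted P value, and its part was not tested. Between the drugs in PARP1 KO cells, 0 of the 10 were called by edgeR or DESeq2, beside 1.07% of all genes, with 3 at an unadjusted P value below 0.05, beside 22.1%. Of these AURKB passed the adjusted P value alone, beside 5.73% of all genes in that direction, with 52.4, 51.5 and 49.4 CPM with niraparib and 59.9, 58.7 and 60.2 CPM with olaparib (log2 fold change -0.22, standard error 0.055, adjusted P = 0.013, edgeR).

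Whether the genotypes differed in these effects was tested directly, as the log2 fold change of a drug in PARP1 KO minus that in WT. For niraparib the difference was above 0 at an adjusted P value below 0.05 in all 10 genes, beside 10.4% of 24675 genes, and was called in 8, beside 3.68% of all genes called higher. It was 2.33 for PLK1 (standard error 0.095, adjusted P = 2.1e-16, edgeR), 2.11 for CCNB1, 1.73 for AURKA, 1.58 for CCNA2 and 1.36 for CDC20. CDK1 at 0.97 (standard error 0.17, adjusted P = 7.9e-04, edgeR), CCNB2 at 0.78 and CDC25C at 0.68 completed the called genes, and AURKB and FOXM1 were both at 0.36. For olaparib 0 of the 10 were called by edgeR or DESeq2, beside 0.276% of all genes called higher. At the adjusted P value alone there were 4, beside 0.912%: CCNB1 at 0.49 (standard error 0.11, adjusted P = 0.019, edgeR), PLK1 at 0.47 (standard error 0.092, adjusted P = 0.0053, edgeR), AURKA at 0.41 and CCNA2 at 0.37. The AURKA difference no longer passed when any 1 of the libraries of these groups was left out, other than PARP1 KO olaparib replicates 1 and 3 (adjusted P up to 0.098, edgeR), nor did that of CCNB1 without PARP1 KO DMSO replicate 1 or 2 or WT olaparib replicate 1 (up to 0.054, edgeR). CDC20, at 0.23 (95% interval 0.085 to 0.38, adjusted P = 0.081, edgeR), had an unadjusted P value below 0.05. All of these share the DMSO libraries of each genotype between the drugs. The luminal list moved in the same direction with niraparib, with a median difference of 0.35. Of its 10 genes, 2 were called higher and 5 were higher at the adjusted P value, beside 3.68% and 10.4% of all genes. Its part in the result was not tested.

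**Figure D3:**
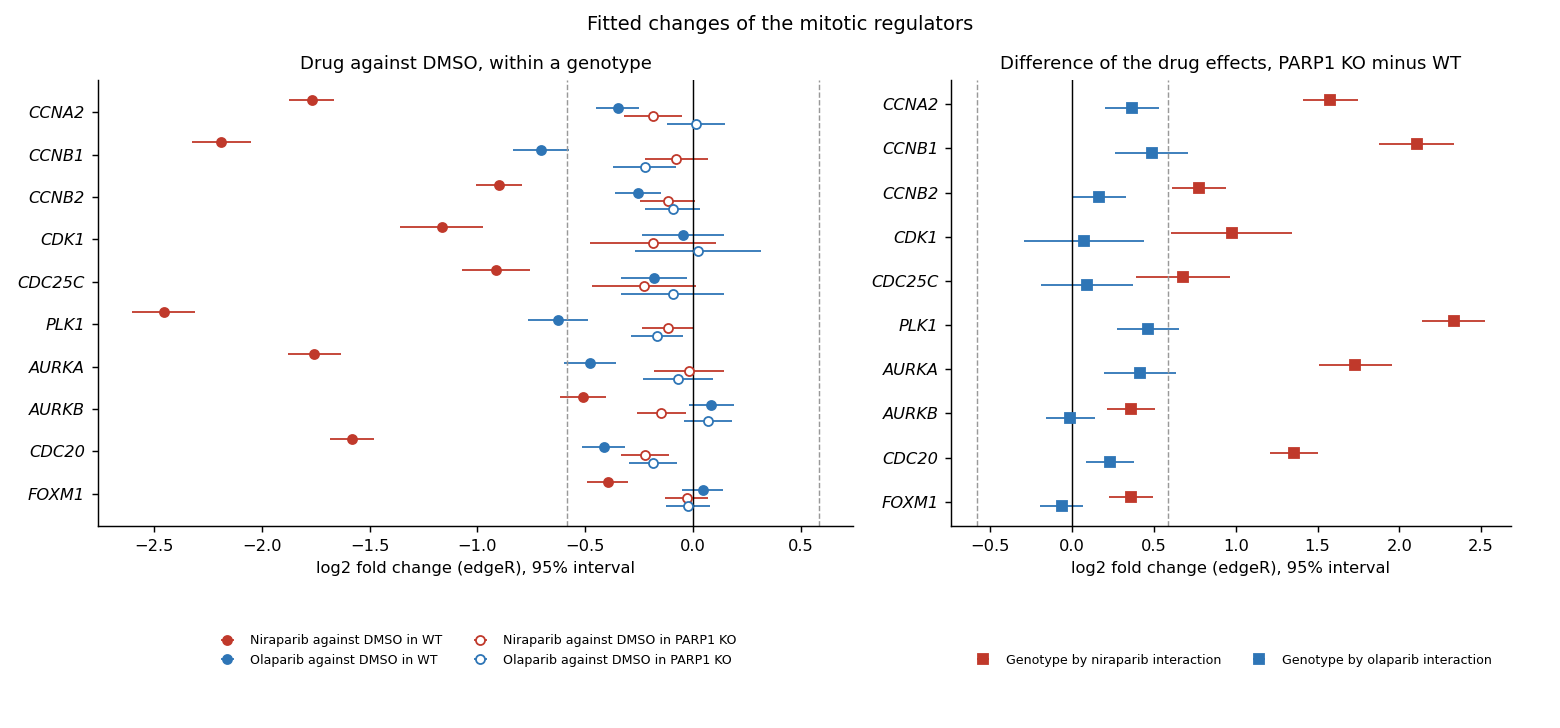
Fitted log2 fold changes with 95% intervals (edgeR) for each regulator; left, drug against DMSO in WT (filled circles) and PARP1 KO (open circles), red for niraparib and blue for olaparib; right, the effect in PARP1 KO minus that in WT (squares), with dashed lines at 1.5-fold. PLK1 lies at -2.46 with niraparib in WT and at -0.12 in PARP1 KO, and the difference of 2.33 is the largest of the 10.

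Without drug the genotypes were close in these 10 genes. With DMSO 0 of the 10 genes were called between PARP1 KO and WT, beside 0.146% of 24675 genes called in either direction, and 0 had an unadjusted P value below 0.05 in edgeR (DESeq2 called 0). The log2 fold changes lay between -0.15 for AURKA and 0.042 for CDK1. AURKA was the only gene of the 10 whose libraries did not overlap, with 215, 213 and 222 CPM in PARP1 KO and the WT values given above, and its 95% interval ran from -0.31 to 0.0042. The share of all genes with separate libraries was not counted for this comparison, so nothing is read from this separation. The summed level of the 10 was 1889 ± 65.0 CPM with DMSO in PARP1 KO, 1738 ± 136 CPM with niraparib and 1778 ± 152 CPM with olaparib (SD, n = 3), each range overlapping the next. With DMSO the luminal list summed to between 14487 and 15175 CPM in PARP1 KO, above its range of 13016 to 13636 CPM in WT. Its part was not tested.

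**Figure D4:**
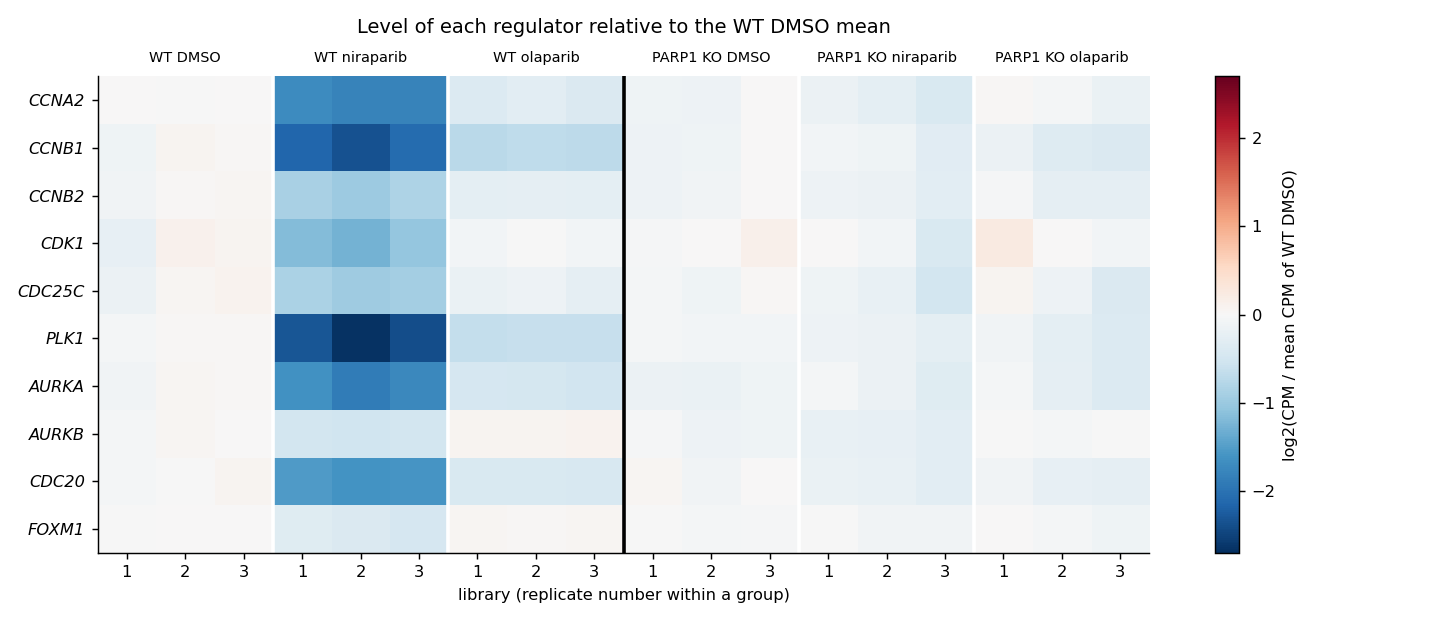
Level of each regulator in each of the 18 libraries as log2 of the ratio to its WT DMSO mean; blue is lower and red is higher, columns are libraries with their replicate number and the black line parts the genotypes. The 3 WT niraparib columns are the bluest in every row, least so in AURKB and FOXM1, and within PARP1 KO the columns of niraparib replicate 3 and olaparib replicate 3 are bluer than their neighbours in most rows.

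Other genes of the same machinery were read from lists, without overlap with the 10. Of 26 further G2/M genes, such as mitotic kinesins, 21 were called lower with niraparib in WT (5.72% of all genes) and 25 were lower at the adjusted P value (18.1%), with a median log2 fold change of -0.95. KIF20A, a kinesin of cytokinesis, fell by 3.001 on the log2 scale (standard error 0.065, adjusted P = 9.2e-18, edgeR) and KIF14 fell by 1.92. With olaparib 3 of the 26 were called lower (1.98% of all genes) and 17 were lower at the adjusted P value (7.77%), KIF20A at -0.73. In PARP1 KO cells 0 of the 26 were called with niraparib by edgeR (0.0136% of all genes in either direction) or DESeq2. At an unadjusted P value below 0.05, 10 were lower (4.65% of all genes), and KIF20A was at -0.23 (adjusted P = 0.12, edgeR).

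Among 12 partners of the Aurora and Polo kinases, 7 were called lower with niraparib in WT (5.72% of all genes) and 0 higher (10 lower and 0 higher at an unadjusted P value below 0.05, and 0 called higher by DESeq2), with a median of -0.95. BUB1, a checkpoint kinase that recruits PLK1 and the passenger complex to kinetochores, fell by 1.89 (adjusted P = 2.4e-15, edgeR) and CDCA8, the borealin subunit of the passenger complex, fell by 1.26 (adjusted P = 1.3e-14, edgeR). AURKB, the enzyme of that complex, was at -0.51 in the same libraries.

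The partners of CDK1 went different ways. Of the 12 tested, 4 were called lower and 2 higher with niraparib in WT, beside 5.72% and 8.1% of all genes, with a median of -0.11. CKS2, a small subunit of CDK complexes, fell by 1.65, and CCNF, an F-box protein of G2, fell by 1.497. PKMYT1, the kinase that inhibits CDK1 at the membrane, rose by 0.83 (standard error 0.048, adjusted P = 1.1e-11, edgeR), as did CDC25A, the S phase member of the CDC25 family, by 0.74 (standard error 0.083, adjusted P = 2.5e-07, edgeR). CDC25C, the mitotic member, fell by 0.91 in the same libraries. WEE1, the other kinase of the list that inhibits CDK1, went the other way from PKMYT1 and fell by 0.69 (standard error 0.068, adjusted P = 3.5e-08, edgeR); it was named after its value was seen.

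For the APC/C, which CDC20 activates, 1 of 14 subunits was called: CDC27 fell by 0.85 (standard error 0.047, adjusted P = 4.4e-12, edgeR), and the median of the 14 was -0.20. The share called is near the 5.72% of all genes called lower, and at the adjusted P value 7 of the 14 were lower, beside 18.1%. Of 10 activators, inhibitors, enzymes and substrates of the APC/C, 3 were called lower and 1 higher, beside 5.72% and 8.1%. PTTG1, or securin, fell by 1.65 (standard error 0.048, adjusted P = 2.8e-16, edgeR), and UBE2C, the ubiquitin-conjugating enzyme that starts chains on cyclin B, fell by 1.62 (standard error 0.063, adjusted P = 1.2e-13, edgeR). USP37, a deubiquitinase that opposes the APC/C on cyclin A, rose by 0.85 (adjusted P = 5.1e-10, edgeR).

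The regulators known to act on the same promoters as FOXM1 were read next. Of 13 subunits of MuvB, DREAM and their relatives, 1 was called lower and 3 higher with niraparib in WT, beside 5.72% and 8.1% of all genes, with a median of 0.011. MYBL2, the MuvB partner of S phase, rose by 0.65 (standard error 0.046, adjusted P = 2.6e-10, edgeR) and RBL1, a pocket protein, rose by 0.70 (standard error 0.098, adjusted P = 1.6e-05, edgeR). RBL2, the pocket protein p130 of the DREAM repressor, fell by 0.63 (adjusted P = 1.3e-09, edgeR). FOXM1, at -0.40, fell where MYBL2 rose.

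Outside G2 and mitosis, 9 of 24 S phase genes were called higher with niraparib in WT, beside 8.1% of all genes called higher, and 20 were higher at the adjusted P value, beside 19.9%, with a median of 0.52. POLA1, the catalytic subunit of polymerase alpha, rose by 0.94 (adjusted P = 4.7e-12, edgeR) and CCNE2, a cyclin of S phase entry, rose by 0.88 (adjusted P = 6.3e-11, edgeR). Of the other 15, none was called, and 4 had values below 0 that did not pass the adjusted P value. Among genes of CDK inhibitors, CDKN1A, which encodes p21, rose by 2.23 (standard error 0.075, adjusted P = 3.1e-12, edgeR), while the INK4 genes CDKN2C and CDKN2D fell by 1.19 and by 0.77. A further INK4 gene, CDKN2B, was at 0.27 (adjusted P = 0.0063, edgeR), under the fold limit. Of the CIP/KIP relatives of CDKN1A, CDKN1B was at 0.083 (adjusted P = 0.20, edgeR) and CDKN1C at -0.77 (adjusted P = 0.11, edgeR), neither past the test. These last 3 genes were named after their values were seen. CCND1, or cyclin D1, was the only one called of 6 G1 cyclins and CDKs, a share close to the 13.8% of all genes called in either direction, and fell by 1.06 (adjusted P = 1.9e-11, edgeR). With olaparib in WT 1 of the 24 S phase genes was called higher, beside 2.06% of all genes, and 14 were higher at the adjusted P value, beside 11.2%. CDKN1A was at 1.18 there (standard error 0.073, adjusted P = 4.5e-08, edgeR).

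**Figure D5:**
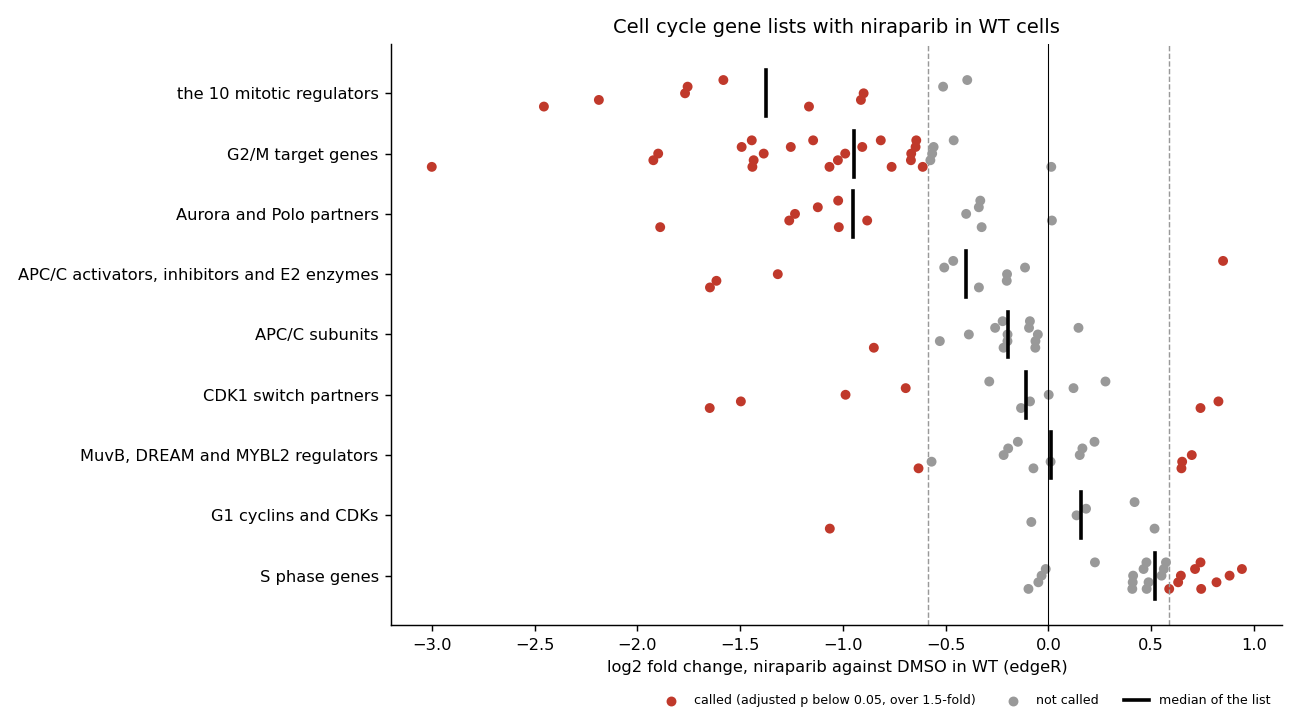
Log2 fold change of niraparib against DMSO in WT (edgeR) for the 10 regulators and 8 lists of related genes, a point for each gene, red where called, with the list's median as a black bar and dashed lines at 1.5-fold. The median lies at -1.37 for the 10 regulators, at -0.95 for the further G2/M genes and at 0.52 for the S phase genes.

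With niraparib in PARP1 KO cells, 0 of the 24 S phase genes were called by edgeR (0.0136% of all genes in either direction) or DESeq2. At an unadjusted P value below 0.05 there were 8, all lower, beside 4.65% of all genes, of which 1 passed the adjusted P value, beside 0.0499%, and the median was -0.11. With olaparib in PARP1 KO cells 0 of the 24 were called by either tool, beside 0.803% of all genes in either direction with edgeR. At an unadjusted P value below 0.05, 14 of the 24 were lower, beside 10.3% of all genes, and 1 was higher. At the adjusted P value 10 were lower (3.87% of all genes) and 1 higher (4.42%), with a median of -0.18. The test of the difference between genotypes with niraparib called 14 of the 24 S phase genes lower, beside 5.2% of all genes, and 18 of the 26 further G2/M genes higher, beside 3.68%. For CDKN1A the difference with niraparib was -2.08 (standard error 0.18, adjusted P = 1.3e-06, edgeR). With olaparib it called 3 of the 24 S phase genes lower, beside 0.381%, and 19 were lower at the adjusted P value, beside 1.35%. Of the 26 further G2/M genes it called 4 higher with olaparib, beside 0.276%, and 8 were higher at the adjusted P value, beside 0.912%. With DMSO alone, 13 of the 24 S phase genes were already higher in PARP1 KO than in WT at the adjusted P value, beside 0.811% of all genes. Of the 24, 0 were called by edgeR (0.146% of all genes in either direction) or DESeq2, with 21 higher at an unadjusted P value below 0.05, beside 7.02%. The median of the 10 mitotic regulators in that comparison was -0.071, with 9 of the 10 below 0.

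Within groups, single libraries stood above or below their group mean in most of the 10 genes at once. In PARP1 KO niraparib replicate 3 all 10 were below their group mean, with a median deviation of -0.11 on the log2 scale, and in PARP1 KO olaparib replicate 1 all 10 were above it, at 0.14. WT niraparib replicate 2 and PARP1 KO DMSO replicate 2 were also below their group means in all 10, at -0.070 and -0.030. WT DMSO replicate 1, of the reference group for the drugs in WT, was below in 9 of the 10, at -0.072. Some of these libraries also stood apart over all genes. The chi-square per gene was 19.1 and 17.6 for WT DMSO replicate 1 against the others of its group, which differed from each other by 3.29. It was 12.3 and 16.9 for WT niraparib replicate 2, beside 3.42 between the others, and 11.8 and 14.7 for PARP1 KO niraparib replicate 3, beside 3.14. In PARP1 KO olaparib no pair was that close: the chi-square per gene was 10.5 and 18.4 for replicate 1, and 8.25 between replicates 2 and 3. WT niraparib replicate 2 was the lowest of its group in 8 of the 10 genes. Without WT DMSO replicate 1 or without WT niraparib replicate 2, 8 regulators were called lower with niraparib in WT, as with all libraries. After subtraction of the group means, the correlation of each gene with the mean of the other 9 over the 18 libraries was between 0.54 for AURKB and 0.95 for AURKA, with FOXM1 at 0.66 and the rest at 0.77 or more. These points share libraries and their depth, so the values describe the libraries and carry no test.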

How the data were processed

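Poly(A) RNA of 18 T47D libraries (6 groups of 3) was sequenced after a stranded library preparation. The authors deposited raw read counts per gene: per the labels and the study's methods, reads were trimmed, aligned to GRCh38 with STAR, passed through duplicate marking, and counted with featureCounts 2.0.0 on the reverse strand for Ensembl release 96; whether marked duplicates were removed is not given in the sources used here. The labels and the study's text differ on RNA input, culture medium and kit.

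Groups were taken from the labels. Genes with more than 10 counts in total entered a fit: the 9 WT libraries (22446 genes), the 9 PARP1 KO libraries (22037), or all 18 (24675) for the genotype comparison and for the difference between genotypes in a drug's effect. Counts were tested in R 4.3.3 with edgeR 4.0.16 (TMM scaling, robust quasi-likelihood test, limma 3.58.1), two-sided, with Benjamini-Hochberg adjustment over all genes of a fit; called means more than 1.5-fold at an adjusted P value under 0.05. DESeq2 1.42.0, the tool of the study, was an alternative, beside other scalings, filters and thresholds, the replicate block and the omission of each library. Levels are CPM with TMM scaling over all 18 libraries. Each group had 3 libraries, and the biological coefficient of variation was 7.05% in WT and 7.42% in PARP1 KO. For an exact permutation test of 3 against 3 libraries the smallest P value is 0.1, so none was used.

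The genes, the lists and the rule for named genes (in each list, the largest called changes in each direction with niraparib in WT) were chosen with earlier results of these data known. No replicate pair agreed within sampling noise.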

Additional observations from a re-analysis of the deposited data

Results flagged for a closer look

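The genotypes differed in the effect of niraparib on all 10 regulators and in the effect of olaparib on 4 of them, each by the test of the difference itself in the fit over all 18 libraries (edgeR, adjusted P value below 0.05). Of all genes, 10.4% passed in the same direction with niraparib and 0.912% with olaparib. As the log2 fold change in PARP1 KO minus that in WT, the difference with niraparib was 1.58 for CCNA2, 2.11 for CCNB1, 0.78 for CCNB2, 0.97 for CDK1, 1.36 for CDC20, 0.68 for CDC25C, 2.33 for PLK1, 1.73 for AURKA, 0.36 for AURKB and 0.36 for FOXM1. With olaparib it was 0.37 for CCNA2, 0.49 for CCNB1, 0.47 for PLK1 and 0.41 for AURKA. Over the alternatives the adjusted P value (edgeR or DESeq2) reached 0.098 for AURKA and 0.054 for CCNB1 and stayed below 0.05 for CCNA2 and PLK1. PARP1 stood between 22.9 and 27.6 CPM in the 9 PARP1 KO libraries. Each genotype is 1 line, so genotype and line cannot be told apart.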

How the results depend on the processing

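Of 1170 values of single regulators under the alternatives, 1139 kept their direction and their side of the threshold, 30 changed sign and 1 lost its call (AURKB, niraparib against olaparib in WT, without WT niraparib replicate 2). Other scaling, other filters, DESeq2, the fit of all 18 libraries and the omission of a library left the count of regulators called as reported in each comparison, apart from that one (8 to 9 of 10). Replicate numbers did not pair the libraries: same-numbered libraries correlated above 0.1 in 3 of 9 pairs in WT and 2 of 9 in PARP1 KO. Differently numbered libraries did so in 8 of 18 pairs in WT and 9 of 18 in PARP1 KO. The highest correlation in WT, 0.654, was between DMSO replicate 1 and niraparib replicate 2. Libraries thus shared variation under other numbers, and its source was not tested. With a replicate block the regulators called were 8, 2 and 9 in the WT comparisons with niraparib, with olaparib and between the drugs, 0 in those within PARP1 KO and between genotypes, and 8 and 0 for the genotype differences with niraparib and olaparib, which changed no call. The genes called under the block were 2920, 812, 1859, 2, 148, 206, 32, 2102 and 137 in the order niraparib, olaparib and niraparib against olaparib in WT, the same in PARP1 KO, PARP1 KO against WT, and the genotype differences with niraparib and with olaparib.

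The threshold moved more. In the same order, the adjusted P value alone called 8530, 4270, 7232, 24, 1827, 2203, 344, 5661 and 559 genes, an absolute log2 fold change over 1.5 called 709, 153, 367, 0, 21, 24, 3, 457 and 30, and the reported counts were 3102, 907, 2009, 3, 177, 236, 36, 2191 and 162. With the adjusted P value alone the regulators called were 6 with olaparib in WT, 1 with olaparib and 1 between the drugs in PARP1 KO, and 4 for the genotype difference with olaparib. With the limit of 1.5 they were 5 with niraparib, 0 with olaparib and 1 between the drugs in WT, and 4 for the genotype difference with niraparib. Niraparib in PARP1 KO called 24 genes with no filter, 8 with DESeq2 and 6 with all 18 libraries in 1 fit; with no filter, PARP1 KO against WT called 102 and the genotype difference with olaparib 346. Leaving out a library gave 100 to 195 genes with olaparib in PARP1 KO, and over 1.5 times fewer than reported without PARP1 KO DMSO replicate 2 (100) or 3 (107) or olaparib replicate 2 (113). Between the drugs in PARP1 KO the range was 144 to 281, the lowest without niraparib replicate 2. For PARP1 KO against WT it was 5 to 46, with 5 without WT DMSO replicate 1, and 12, 11 and 16 without PARP1 KO DMSO replicates 1, 2 and 3. For the genotype difference with olaparib it was 86 to 273, with 273, 93 and 104 without PARP1 KO olaparib replicates 1, 2 and 3, 107 and 93 without WT olaparib replicates 1 and 2, and 86 without WT DMSO replicate 1. The cause was not tested.

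The values that changed sign were all uncalled and near 0. Over the alternatives the log2 fold changes ran from -0.148 to 0.023 for CDK1 with olaparib in WT and from -0.082 to 0.049 for AURKA with niraparib in PARP1 KO. With olaparib in PARP1 KO they ran from -0.037 to 0.073 for CCNA2, -0.072 to 0.087 for CDK1, -0.213 to 0.011 for CDC25C and -0.059 to 0.0067 for FOXM1. Between the drugs in PARP1 KO they ran from -0.061 to 0.053 for CCNB2, -0.062 to 0.017 for CDC20, -0.010 to 0.126 for PLK1, -0.016 to 0.141 for AURKA and -0.036 to 0.030 for FOXM1. For PARP1 KO against WT they ran from -0.060 to 0.107 for CDK1, -0.034 to 0.034 for CDC20 and -0.118 to 0.0037 for CDC25C. For the genotype difference with olaparib they ran from -0.021 to 0.175 for CDK1, -0.028 to 0.196 for CDC25C and -0.034 to 0.019 for AURKB, which was at 0.0012 with edgeR's own filter on low counts.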

Other observations

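By a rule of likeness to the mean log2 CPM of the 10 regulators (Pearson r over the 18 libraries, among 13516 genes averaging 1 CPM or more), the genes nearest to them were CDCA8 at 0.997, BIRC5, PTTG1, CKS2 and KIF20A at 0.995, and ARHGAP11A at 0.994. All of these but ARHGAP11A stand in the lists of mitotic genes above. The same level of likeness, 0.994, was reached by DHTKD1, a mitochondrial dehydrogenase subunit, and by FDFT1, squalene synthase of the cholesterol pathway, with PRR11 and TNFAIP8L1 next. The 3 WT niraparib libraries are the lowest of the 18 for the sum of the 10 regulators, and all of these values share them. After the group means were taken out, the nearest genes were others: GSKIP at 0.969, ARL6IP1 at 0.967, SUCLG2, RETREG2 and B4GALT4 at 0.966, the mitotic kinases NEK2 at 0.963 and TTK at 0.960, and KIF2C, PSAP and TXNRD1 after them. These are descriptions over libraries that share their depth and handling, with no test.

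Copies of the regulators elsewhere in the genome took few reads. The pseudogene CDC20P1 had 247 counts over the 18 libraries, 0.277% of the count of CDC20, AURKAP1 had 41 and CCNB2P1 had 11. None of the 10 genes shares exon bases with another annotated gene on its strand.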
